A study of Homo sapiens with 40 samples.

Results

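The secreted Wnt antagonist genes are 10 genes chosen by name, DKK1, DKK2, DKK3, DKK4, FRZB, SFRP1, SFRP2, SFRP4, SFRP5 and WIF1, of 19451 protein-coding genes of at least 1 kb that were scored. Each was described by the percent of its gene body that lay inside merged H3K27me3 peaks, in each library and group. The assay was CUT&Tag against H3K27me3, the repressive histone modification written by Polycomb complexes; antibody-bound transposase cuts out and tags the DNA near the modification for sequencing. The cells were of the KMS-11 multiple myeloma line, whose t(4;14) translocation overexpresses NSD2, the enzyme that writes H3K36me2.

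Wnt proteins signal by binding Frizzled receptors together with the coreceptors LRP5 and LRP6, and osteoblasts need this signal to form bone. Dickkopf proteins (DKK) bind LRP5 and LRP6, whereas secreted Frizzled-related proteins (SFRP and FRZB) and WIF1 bind the Wnt ligands. Myeloma cells of many patients secrete DKK1, and together with other inhibitors from this group it restrains osteoblasts in the bone lesions of the disease.

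Peak lists of 30 H3K27me3 libraries were used, 2 for each of 15 groups. NSD2 knockout (KO) clones 3 and 12 were set against the wild-type KMS-11 line they came from, called KO parental. NSD2-dTAG clones 8 and 11 were sampled at days 0, 7, 14 and 21 of dTAGV-1, a compound that leads tagged proteins to degradation, with 100 nM given for these cells. The parental line used for dTAG engineering, which carries no tag, was sampled on the same days, and no dose is stated for it. Each experiment rests on 2 clones, and the parental libraries are not said to come from separate cultures, so p-values reflect variation among libraries that may be only technical. Loss of NSD2 itself was not checked here, because H3K27me3 peaks do not show it.

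The lists held 34740 to 205920 peaks and covered 36.1 to 168 Mb. Called length averaged 130 Mb in KO clones and 67.4 Mb in KO parental, and in dTAG clones 120 Mb at day 21 and 50.7 Mb at day 0. Depth was not listed. An estimate of the peak caller's background pileup, in fragments per position, averaged 2.49 in KO clones and 2.04 in KO parental, and 2.33 in dTAG clones at day 21 and 1.44 at day 0. Longer lists and higher pileup therefore moved with the groups compared, and values scaled by list length or adjusted for pileup are given beside the calls that they end. A gene may be modified and yet lie outside the peaks of a shallow library. Peak lists show only whether cell type markers lie in peaks. Of 8 plasma cell markers, JCHAIN was outside peaks in all 30 libraries, and PRDM1 and TNFRSF17 were covered by at most 1.48% and 2.66%. IRF4 reached 7.39%, SDC1 12.0%, MZB1 16.9% and XBP1 35.4%, and SLAMF7 was covered by 9.59% to 55.8%. Of 4 osteoblast and stroma markers, RUNX2 was covered by 0.517% to 4.16%, SP7 by 8.32% to 44.0%, BGLAP by 0% to 97.8% and COL1A1 by 34.1% to 66.9%. Of the 3 T cell and 3 monocyte markers, CSF1R was in peaks in all 30 libraries, and the others were in peaks in 11 (CD14) to 22 (CD3D).

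The sequences just upstream of 3 start sites are shown because they contrast members marked there in every library with one marked there in few. The 250 bases before the RefSeq start (GRCh38.p14, the assembly named hg38) are printed for DKK1 and FRZB, which had a peak over the start base in all 30 libraries, and for WIF1, which had one in 10. They lie at chr10:52314031-52314280 (plus strand) for DKK1, chr2:182866638-182866887 (minus strand) for FRZB and chr12:65121306-65121555 (minus strand) for WIF1. They read 5′ to 3′ and capitals mark every CG dinucleotide, which reads the same on both strands.
DKK1: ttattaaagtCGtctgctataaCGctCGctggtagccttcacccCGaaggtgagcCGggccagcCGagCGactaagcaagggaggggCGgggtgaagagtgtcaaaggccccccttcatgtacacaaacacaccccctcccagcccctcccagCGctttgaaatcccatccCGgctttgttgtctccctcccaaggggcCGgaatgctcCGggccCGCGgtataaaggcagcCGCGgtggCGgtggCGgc
FRZB: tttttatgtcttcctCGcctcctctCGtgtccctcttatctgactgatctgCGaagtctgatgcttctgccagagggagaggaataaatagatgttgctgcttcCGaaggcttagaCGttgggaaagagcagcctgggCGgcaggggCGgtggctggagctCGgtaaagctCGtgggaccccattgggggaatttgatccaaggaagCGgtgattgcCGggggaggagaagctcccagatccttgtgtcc
WIF1: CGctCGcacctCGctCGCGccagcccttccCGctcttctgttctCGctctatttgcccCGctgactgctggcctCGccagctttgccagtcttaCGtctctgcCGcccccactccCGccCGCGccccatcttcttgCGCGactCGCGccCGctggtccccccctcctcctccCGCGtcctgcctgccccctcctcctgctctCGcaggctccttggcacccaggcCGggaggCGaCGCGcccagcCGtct
The DKK1 stretch holds 18 CG dinucleotides, the FRZB stretch 11 and the WIF1 stretch 27. Among 11367 protein-coding promoters of the same length, 51.4% had at least as many as DKK1, 68.5% at least as many as FRZB and 23.9% at least as many as WIF1. The whole FRZB stretch lay inside a peak in 30 of 30 libraries, the whole DKK1 stretch in 25 and the whole WIF1 stretch in 6. The same stretch holds 11 CG in SFRP2, 17 in SFRP4 and 21 in SFRP5, and it lay wholly inside a peak in 0, 3 and 16 libraries in that order. Across these 6 genes the number of CG and the number of marked libraries thus had no common order.

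DKK1 was marked at its start in every library and did not pass the test in any comparison. The gene (chromosome 10, 52314281 to 52317657, hg38) held exactly 1 peak in each of the 30 libraries, and this peak lay across the start base with a width of 920 to 2019 bp. Its fold enrichment in the authors' lists was 3.38 to 5.44 and its -log10 q 2.58 to 26.7. The percent of DKK1 inside peaks was 28.4 and 24.6 in KO clone 3 and 24.5 and 24.2 in KO clone 12, against 27.9 and 20.5 in KO parental. The KO and parental values overlapped, and the difference was 1.24 percentage points ± 2.98 (SE; limma adjusted p = 0.876). In the dTAG clones the mean was 22.7% ± 2.35 at day 0, 25.0% ± 0.256 at day 7, 26.2% ± 1.48 at day 14 and 27.5% ± 1.30 at day 21 (SD, n = 4 each). The day 21 difference of 4.79 points ± 2.43 had adjusted p = 0.169, and it turned negative, -21.3 points (adjusted p = 0.00258), when coverage was divided by the called length of each library, as a gene covered alike in short and long lists must. In the untagged dTAG parental line DKK1 was covered by 25.2% at day 21 in both libraries and 17.4% ± 6.20 at day 0 (n = 2 each), a difference of 7.85 points ± 3.44 (adjusted p = 1). By the correlation of means over the 15 groups, the genes most like DKK1 were RPL7 (Pearson r = 0.942), TMED5 (0.865) and PTS (0.863). These correlations are descriptive, since all genes share the lists and their depth.

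**Figure D1:**
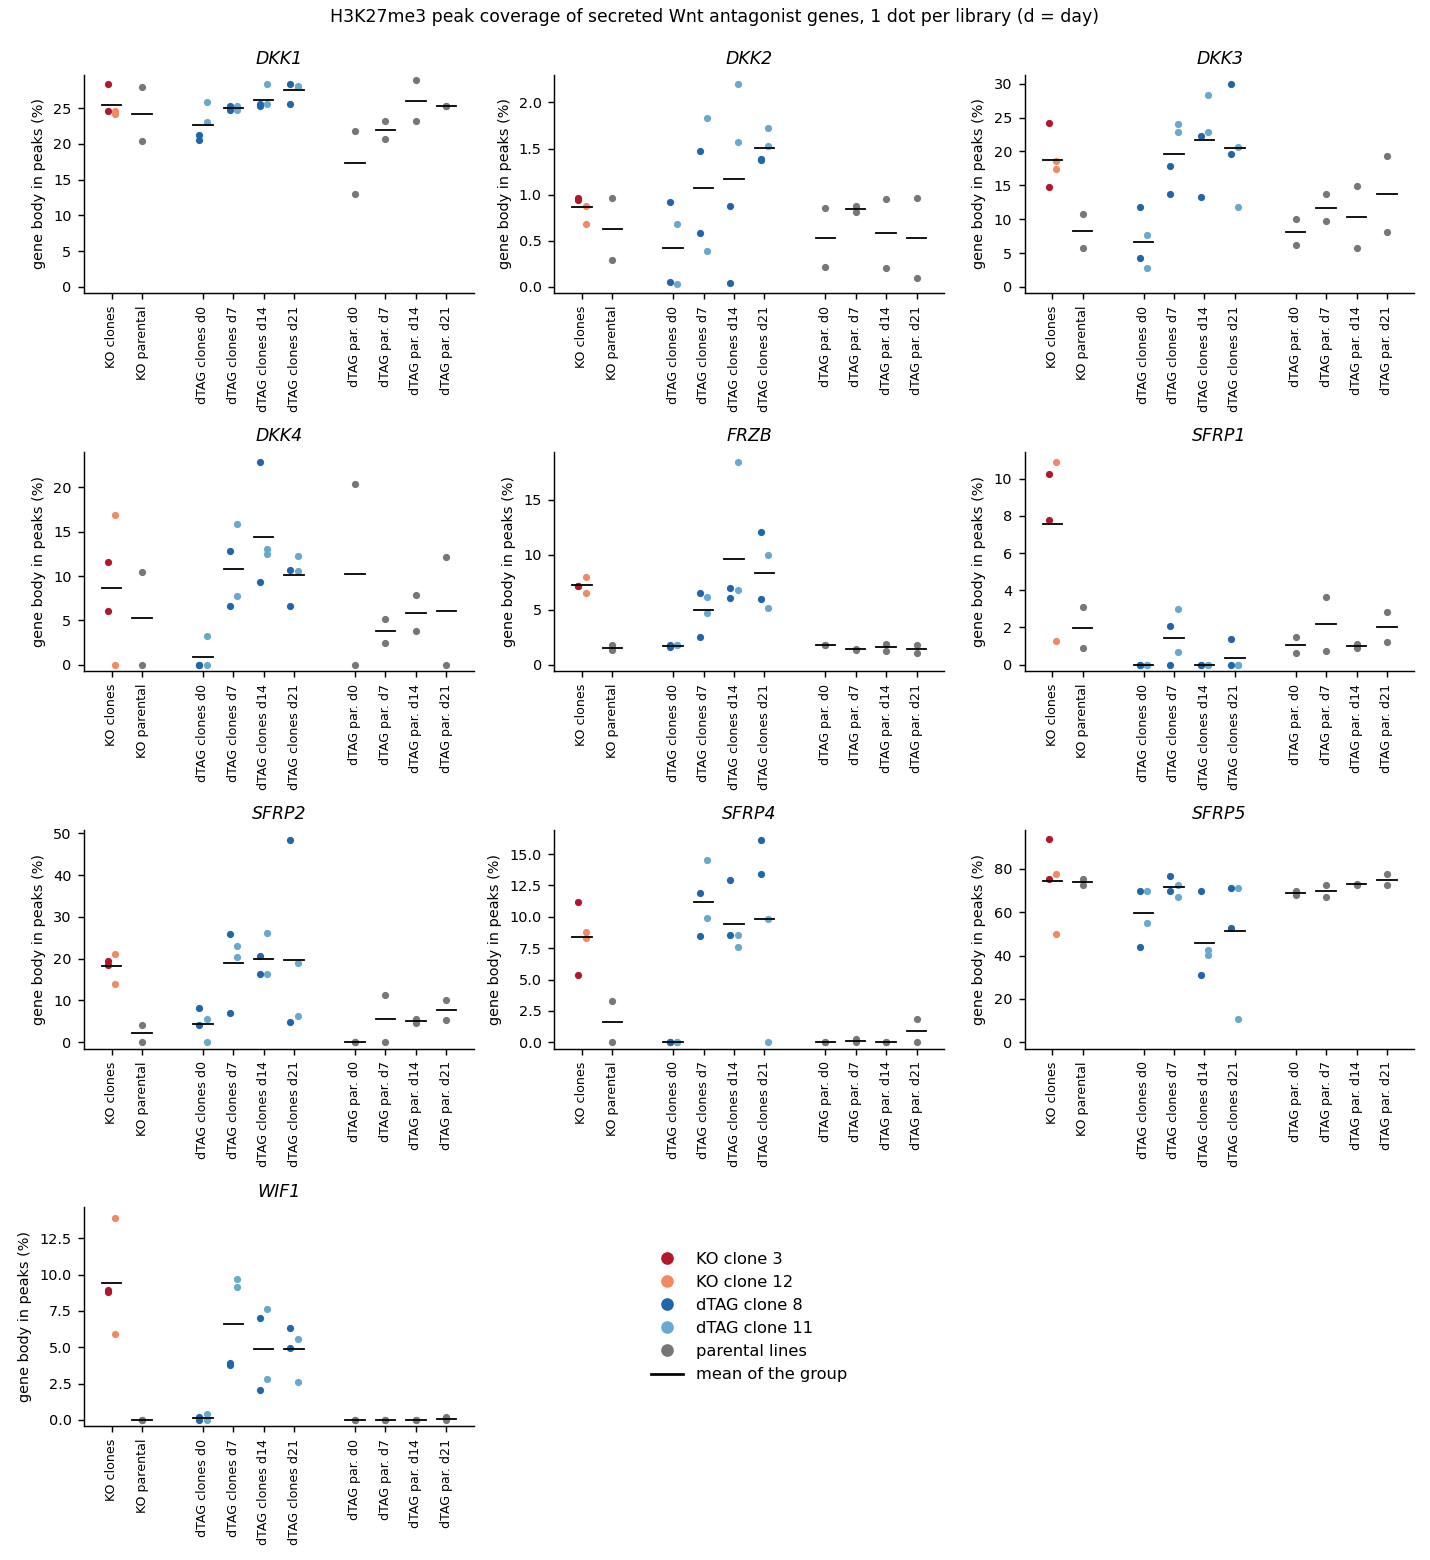
Percent of each gene body inside merged H3K27me3 peaks (y axis, a separate scale for each gene), 1 dot per library, with a line at the mean of each group; KO clones, KO parental, then dTAG clones and the dTAG parental line (par.) at days (d) 0 to 21. WIF1 sits between 2.08% and 13.9% in the KO and treated dTAG clones and at or below 0.433% in the other libraries, while DKK1 lies between 13.0% and 28.9% throughout.

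The other Dickkopf genes differed from each other in where the peaks lay. DKK2 (chromosome 4, 106921802 to 107036313), a ligand of LRP6 that can activate or inhibit it, had a mean coverage of 0.879% and did not reach the 1% needed for a test. A peak of 1171 to 2506 bp crossed its last base by coordinate in all 30 libraries. The reference used gave no strand or start site for DKK2, so this peak may lie at its start and was not placed. The 16 KO and treated dTAG clone libraries held 1 to 5 peaks in the gene, with a median of 2, and each of the 14 other libraries held 1. DKK2 coverage in dTAG clones was 0.0358% to 0.920% at day 0, 0.394% to 1.83% at day 7, 0.0402% to 2.19% at day 14 and 1.38% to 1.72% at day 21, so that day 21 alone did not overlap with day 0. In KO clones it was 0.683% to 0.959%, within the 0.293% and 0.968% of KO parental.

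DKK3, a divergent member of the family that binds LRP coreceptors weakly or not at all, rose in the dTAG clones. The gene (chromosome 11, 11963036 to 12009745) was covered by 11.8% and 4.21% in clone 8 and 7.71% and 2.76% in clone 11 at day 0. At day 7 it was covered by 13.7% and 17.8% in clone 8 and 22.8% and 24.0% in clone 11. At day 14 the values were 22.2% and 13.3% in clone 8 and 28.3% and 22.9% in clone 11. At day 21 they were 30.0% and 19.7% in clone 8 and 20.6% and 11.8% in clone 11, so that the lowest day 21 library and the highest day 0 library were nearly level and the groups overlapped. The changes from day 0 were 13.0 points ± 3.50 at day 7 (adjusted p = 0.0137), 15.1 ± 3.50 at day 14 (adjusted p = 0.00434) and 13.9 ± 3.50 at day 21 (adjusted p = 0.00639). The day 7 call was lost without replicate 2 of clone 8 at day 0 (adjusted p = 0.0751) or day 7 (0.0586) or replicate 2 of clone 11 at day 0 (0.0610). Scaled by called length, DKK3 was not called at day 7 (4.48 points, adjusted p = 0.0879) or day 21 (3.93 points, adjusted p = 0.126) and was called at day 14 (6.12 points, adjusted p = 0.0217). With pileup as a covariate the 3 gains were smaller but called, at 7.66, 10.2 and 7.68 points, and with only the compared groups fitted day 21 was not called (adjusted p = 0.0535). In the KO clones it was 24.1%, 14.7%, 18.7% and 17.4%, all above the 10.8% and 5.72% of KO parental, and the difference of 10.5 points ± 4.28 had adjusted p = 0.107, or 0.0108 with the replicate number as a block. The dTAG parental line had 10.1% and 6.13% at day 0, 13.7% and 9.67% at day 7, 15.0% and 5.73% at day 14, then 19.4% and 8.13% at day 21. The mean number of peaks inside DKK3 was 8.81 in the KO and treated clones and 3.79 in the other libraries.

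DKK4 (chromosome 8, 42374063 to 42391322), an LRP6 inhibitor that Wnt signalling itself switches on in several tissues, passed the test at day 14 alone. At day 14 it was covered by 22.8% and 9.35% in dTAG clone 8 and 13.1% and 12.5% in dTAG clone 11. At day 0 it was at 0% in 3 of the 4 libraries and 3.28% in the fourth, all below day 14, a change of 13.6 points ± 4.44 (adjusted p = 0.0341). Without any 1 of 7 of the 8 libraries compared, its adjusted p lay between 0.0614 and 0.185. The call was also lost when scaled by called length (10.2 points, adjusted p = 0.0726) or with pileup as a covariate (9.85 points, adjusted p = 0.122). The changes at day 7 (9.96 points, adjusted p = 0.127) and day 21 (9.25 points, adjusted p = 0.143) were not called, except with only the compared groups fitted (adjusted p = 0.0319 and 0.0142). In KO clones DKK4 ranged between 0% and 16.8%, across the 0% and 10.4% of KO parental. The untreated dTAG parental line had 20.4% and 0% at day 0, so 1 library without treatment lay within the day 14 range of the clones. That line had 5.17% and 2.49% at day 7, 7.84% and 3.79% at day 14, then 12.1% and 0% at day 21.

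Peaks covered part of WIF1 in every KO and treated clone library. WIF1 (chromosome 12, 65050626 to 65121305), whose protein holds Wnt ligands away from their receptors, was covered by 8.93% and 8.82% in KO clone 3 and 13.9% and 5.91% in KO clone 12, against 0% in both KO parental libraries. In dTAG clone 8 it was covered by 0.175% and 0% at day 0, 3.79% and 3.90% at day 7, 7.03% and 2.08% at day 14, then 6.34% and 4.93% at day 21. In dTAG clone 11 it was covered by 0% and 0.433% at day 0, 9.17% and 9.67% at day 7, 7.62% and 2.84% at day 14, then 5.54% and 2.64% at day 21. Every KO and treated clone library was above every KO parental and day 0 library. In the dTAG parental line WIF1 was at 0% in 7 of 8 libraries and 0.177% in 1 at day 21.

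WIF1 rose by 9.40 points ± 1.68 in KO clones (adjusted p = 0.000792), by 6.48 ± 1.38 at day 7 (adjusted p = 0.00319), by 4.74 ± 1.38 at day 14 (adjusted p = 0.0180) and by 4.71 ± 1.38 at day 21 (adjusted p = 0.0161). Each SE pools the spread of all 15 groups. For WIF1 the parental groups were at or near 0% with little spread, whereas the 4 KO clone libraries had an SD of 3.32 points. WIF1 averaged 0.0561% in the 14 other libraries and reached the 1% mean coverage needed for a test only through the 16 KO and treated clone libraries, so that the filter favoured a difference. With no filter its adjusted p was 0.00112 in KO clones and 0.00533, 0.0261 and 0.0238 at days 7, 14 and 21. With coverage scaled by called length these gains were called as well, at 6.79, 5.07, 3.50 and 3.40 points. The gain was called in the KO clones without any 1 library, but not with only the compared groups fitted (adjusted p = 0.0940), which also ended the day 14 call (adjusted p = 0.0861). At day 21 it was not called without replicate 1 of clone 8 (adjusted p = 0.0648) or replicate 1 of clone 11 (adjusted p = 0.0842), and at day 14 leaving out any of 4 of the 8 libraries gave an adjusted p of 0.0540 to 0.121. With pileup as a covariate the KO and day 7 gains were called and those at day 14 (adjusted p = 0.0615) and day 21 (adjusted p = 0.0933) were not. The part of depth in these values was not tested further.

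Upstream of WIF1 the same libraries carried a separate peak. In the window 5 to 4 kb before the start, all 16 KO and treated dTAG clone libraries had a peak, which covered 87.8% to 100% of the window, and 1 of the 14 other libraries had one, which covered 21.2%. The peaks in the KO and treated clones were 1256 to 1994 bp wide, with folds of 3.12 to 4.50 in the authors' lists. This window was picked after its values were seen and is given without a test. Over the start base itself a peak lay in 7 of the 16 KO and treated libraries and in 3 of the 14 others. Inside WIF1 the KO and treated libraries had a median of 7.5 peaks, and 1 of these 123 peaks reached a -log10 q of 5.

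**Figure D2:**
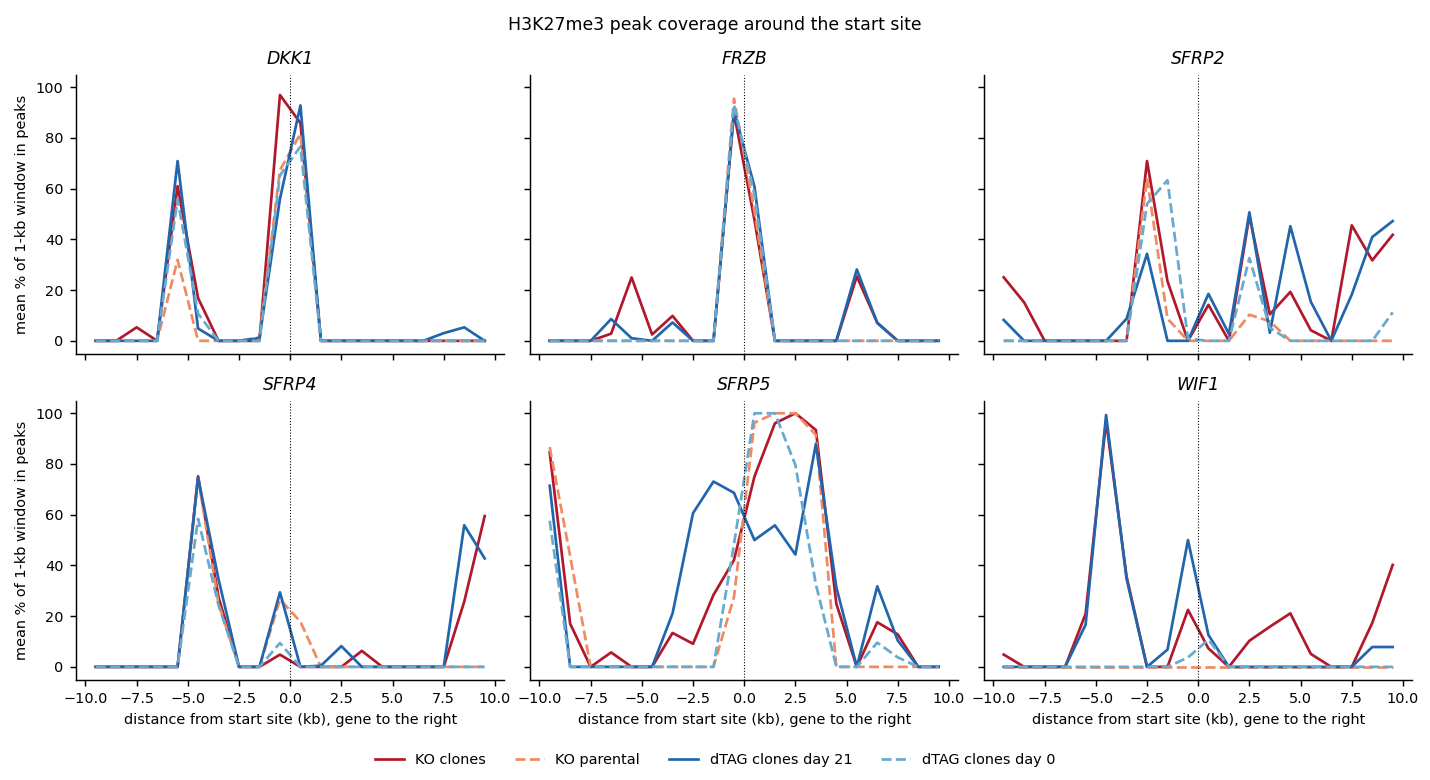
Mean percent of each 1-kb window inside peaks (y axis) by distance from the start site in kb (x axis, gene to the right) for the 6 genes with a RefSeq start; solid lines are KO clones and dTAG clones at day 21, dashed lines KO parental and dTAG clones at day 0. DKK1 and FRZB have a peak at the start in all 4 groups, and WIF1 has a peak 5 to 4 kb upstream in the KO clones and at day 21.

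FRZB, a Wnt-binding antagonist first known from cartilage, gained peaks in its body while the peak at its start stayed of like width. The gene (chromosome 2, 182833275 to 182866637) had a peak of 1308 to 1638 bp over its start base in all 30 libraries, and 26.2% to 32.8% of the 5 kb around the start lay inside peaks. The fold of this start peak was 4.29 to 5.48 in dTAG clones at day 0 and 3.46 to 4.72 at day 7. At day 14 it was 3.10 to 4.26, below day 0 without overlap, and at day 21 it was 3.35 to 4.62. In KO clones it was 3.46 to 4.39 and in KO parental 3.73 to 4.79. The 16 KO and treated clone libraries held 2 to 7 peaks in the gene, and the 14 libraries of the parental lines and the untreated clones held exactly 1. FRZB was covered by 7.19% and 7.14% in KO clone 3 and 6.55% and 7.93% in KO clone 12, against 1.77% and 1.29% in KO parental. The groups did not overlap, but the difference of 5.67 points ± 2.25 had adjusted p = 0.0957.

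In dTAG clone 8 FRZB was covered by 1.75% and 1.64% at day 0, 2.54% and 6.53% at day 7, 7.01% and 6.06% at day 14, then 12.1% and 5.99% at day 21. In dTAG clone 11 it was covered by 1.77% and 1.75% at day 0, 4.65% and 6.14% at day 7, 18.4% and 6.81% at day 14, then 10.0% and 5.19% at day 21. All 12 treated libraries were above the 4 at day 0. FRZB rose by 7.85 points ± 1.84 at day 14 (adjusted p = 0.00463) and by 6.59 ± 1.84 at day 21 (adjusted p = 0.0124), and the 3.23 points of day 7 were not called (adjusted p = 0.244). The day 21 gain was not called without replicate 1 of clone 8 (adjusted p = 0.0827) or replicate 1 of clone 11 (adjusted p = 0.0750), nor when scaled by called length (2.92 points, adjusted p = 0.0577) or with pileup as a covariate (5.51 points, adjusted p = 0.0696). Under both of these the day 14 gain was called, at 4.37 and 7.00 points. With only the compared groups fitted neither day was called (adjusted p = 0.0993 and 0.0542), whereas the KO difference was (adjusted p = 0.0477). Of the 49 peaks away from the start in the KO and treated clones, 1 reached a -log10 q of 5, and with peaks below a fold of 4 left out the day 14 and day 21 differences were -0.845 and -0.170 points. This filter also acted on the start peak, the only peak in the gene at day 0. In the dTAG parental line FRZB stayed between 1.07% and 1.89%.

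SFRP4, a phosphate-regulating Frizzled-related protein of bone, was outside peaks in the untreated dTAG clones and partly inside them in 11 of 12 treated libraries. The gene (chromosome 7, 37905932 to 37916817) was at 0% in all 4 libraries at day 0. At day 7 it was covered by 8.48% and 11.9% in clone 8 and 14.6% and 9.88% in clone 11, and at day 14 by 12.9% and 8.52% in clone 8 and 8.56% and 7.63% in clone 11. At day 21 it was covered by 13.4% and 16.1% in clone 8 and 9.86% and 0% in clone 11. The clone 11 library at 0% had the shortest list of the dTAG clones at that day, 83.4 Mb. Replicate 2 of clone 8 at day 14 had a shorter list, 78.3 Mb, with SFRP4 at 8.52%, and the part of list length was not tested. SFRP4 rose by 11.2 points ± 1.81 at day 7 (adjusted p = 0.000667), 9.41 ± 1.81 at day 14 (adjusted p = 0.00115) and 9.85 ± 1.81 at day 21 (adjusted p = 0.000670), and all 3 gains were called without any 1 library, when scaled by called length and with pileup as a covariate. SFRP4 averaged 0.385% in the 14 libraries of the parental lines and untreated clones and, like WIF1, reached the 1% mean only through the other 16.

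In KO clone 3 SFRP4 was covered by 11.2% and 5.38% and in KO clone 12 by 8.80% and 8.28%, against 3.27% and 0% in KO parental, without overlap. SFRP4 rose by 6.77 points ± 2.22 (adjusted p = 0.0411). This call was lost without replicate 1 (adjusted p = 0.0709) or 2 (0.360) of KO parental, replicate 1 of clone 3 (0.146) and either replicate of clone 12 (0.0876 and 0.0620). It was also lost when scaled by called length (4.27 points, adjusted p = 0.0718) or with pileup as a covariate (5.95 points, adjusted p = 0.0586), and with only the compared groups fitted (adjusted p = 0.132). The dTAG parental line had 0.266% in 1 library at day 7, 1.85% in 1 at day 21 and 0% in the other 6. A peak 5 to 4 kb before the SFRP4 start was present in all 30 libraries.

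SFRP1 was the member whose gain was called in the KO clones and in no dTAG comparison. SFRP1 (chromosome 8, 41261962 to 41309473), a secreted Frizzled-related protein, was covered by 10.2% and 7.77% in KO clone 3 and 10.9% and 1.29% in KO clone 12, against 3.08% and 0.903% in KO parental. Replicate 2 of clone 12 lay between the parental values, so the groups overlapped. That library had the shortest list of the KO clones, 94.0 Mb, and the part of list length was not tested. SFRP1 rose by 5.56 points ± 1.67 (adjusted p = 0.0258). The call was lost without replicate 1 (adjusted p = 0.0601) or 2 (0.263) of KO parental and without replicate 1 of clone 3 (0.0824), and when scaled by called length (2.55 points, adjusted p = 0.136) or with only the compared groups fitted (adjusted p = 0.341). Without replicate 1 of clone 12 the gain was called but smaller, 3.16 points.

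In the dTAG clones SFRP1 was at 0% in all libraries at days 0 and 14. At day 7 it was covered by 0% and 2.06% in clone 8 and 2.98% and 0.676% in clone 11, and at day 21 by 1.36% and 0% in clone 8 and 0% in both libraries of clone 11. The KO change minus the day 21 change was 5.22 points ± 2.16 (adjusted p = 0.487), so the 2 were not shown to differ, although this difference was called without replicate 2 of KO clone 12 (7.61 points, adjusted p = 0.00360). In the dTAG parental line every library had some coverage, 1.49% and 0.606% at day 0, 3.65% and 0.722% at day 7, 0.878% and 1.10% at day 14, then 2.84% and 1.24% at day 21. Untreated dTAG clones minus untreated dTAG parental gave -1.05 points ± 1.67 (adjusted p = 1). Of the 24 peaks in SFRP1 in KO and treated clones none reached a -log10 q of 5, and of the 15 in the other libraries 6 did.

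SFRP2 (chromosome 4, 153780591 to 153789083), secreted by stromal cells and by myeloma cells of some patients, had high values in KO and treated clones that did not pass the test. It was covered by 14.0% to 21.2% in KO clones against 0% to 4.24% in KO parental (16.2 points ± 7.90, adjusted p = 0.191). In dTAG clones the range was 0% to 8.12% at day 0, 7.01% to 25.8% at day 7, 16.2% to 26.2% at day 14 and 4.75% to 48.4% at day 21. The day 21 difference of 15.1 points ± 6.45 had adjusted p = 0.0956, and it rested on the clone 8 libraries. Without replicate 1 of clone 8, at 48.4%, it was 4.22 points (adjusted p = 0.605), and without replicate 2 of clone 8, at 4.75%, it was 26.0 points (adjusted p = 0.000317). With only the compared groups fitted the day 14 difference of 15.4 points was called (adjusted p = 0.0267), and with all groups it was not (adjusted p = 0.100). No peak crossed its start base in any library. Around the start the dTAG clones went the other way, with 21.25% of the 5 kb inside peaks at day 0. The means were 10.5%, 4.045% and 8.52% at days 7, 14 and 21, while KO clones had 18.0% and KO parental 10.7%. A peak 3 to 2 kb before the start lay in 12 of the 16 KO and treated libraries and in all 14 others. These values around the start were not tested.

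SFRP5 (chromosome 10, 97766751 to 97771999), a Wnt-binding protein best known from fat tissue, was the most covered member, at a median of 69.6% over the 30 libraries and with 10.6% to 93.8% as its range. KO clones averaged 74.2% ± 18.1 (n = 4) and KO parental 73.9% ± 2.16 (n = 2), and the difference was not called (0.305 points ± 13.3, adjusted p = 0.9997). Day 21 minus day 0 in the dTAG clones was -8.14 points ± 10.9 (adjusted p = 0.656). This difference became 6.96 points without replicate 2 of clone 11, the library at 10.6%. With all lists shortened to the length of the shortest by dropping the weakest peaks, SFRP5 was called lower in KO clones (-61.4 points, adjusted p = 0.0232) and at day 21 (-59.5 points, adjusted p = 0.00414). Peaks over SFRP5 were of low fold, 1.85 to 2.60 in the authors' lists.

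Of the 9 members that entered the test, 3 were called higher in KO clones (SFRP1, SFRP4 and WIF1), beside 18.0% of the 13977 genes tested. In the dTAG clones 3 were called higher at day 7 (DKK3, SFRP4 and WIF1), beside 21.1% of all genes, 5 at day 14 (DKK3, DKK4, FRZB, SFRP4 and WIF1), beside 22.0%, and 4 at day 21 (DKK3, FRZB, SFRP4 and WIF1), beside 26.5%. No member was called lower by limma, beside 0.744% of genes in KO clones and 0.243%, 0.630% and 0.494% at days 7, 14 and 21. None was lower at an unadjusted p under 0.05, beside 2.03% of genes in KO clones and 0.766%, 1.77% and 1.19% at those days. The median change of the 9 was 5.67 points in KO clones, where the median of all genes tested was 1.46, and 6.59 points at day 21, where it was 2.05. A gene covered only in KO and treated clones can pass the coverage filter through those libraries, so these counts are descriptions. With peaks of a -log10 q under 5 left out, or of a fold under 4, no member was called in any of these 4 comparisons. Only DKK1, DKK3, FRZB and SFRP5 reached the coverage limit with the first filter, and only DKK1 and FRZB with the second. The other members were then not tested, so these are not failed tests for them. In 5 of 9 members every KO clone library was above both KO parental libraries, beside 28.6% of all genes, and every library of the treated clones was above every day 0 library in 5 of 9 at day 7, beside 29.8%, in 6 of 9 at day 14, beside 24.6%, and in 3 of 9 at day 21, beside 27.6%. At an unadjusted p under 0.05 there were 5 members in KO clones and 5, 6 and 5 at days 7, 14 and 21, beside 28.3%, 32.4%, 32.8% and 36.3% of all genes.

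**Figure D3:**
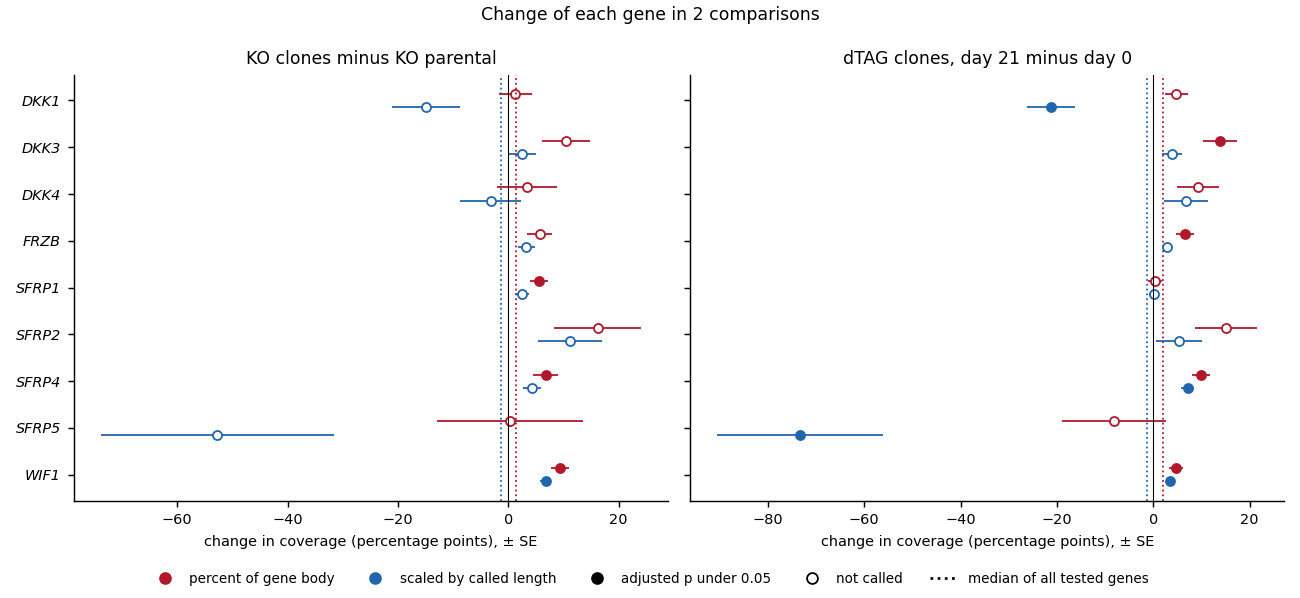
Change in coverage of the 9 tested genes in percentage points with its SE (x axis), for KO clones minus KO parental and for dTAG clones at day 21 minus day 0, as measured and after scaling by the called length of each library; filled dots have adjusted p under 0.05 and dotted lines mark the median of all tested genes. WIF1 is called both ways in both comparisons, DKK1 turns negative after scaling in both, and SFRP5 is lower after scaling, called at day 21.

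In the untagged dTAG parental line no member was called at day 7, 14 or 21, where limma called 0%, 0% and 0.0143% of all genes higher. At an unadjusted p under 0.05 there were 0, 1 and 1 members, DKK1 at both later days, beside 2.09%, 2.50% and 3.83% of all genes. The change of the clones minus that of the parental line at day 21 was not called for any member, beside 1.93% of genes called higher and 0.0859% lower, with FRZB (6.96 points ± 3.19, adjusted p = 0.283) and SFRP4 (8.93 ± 3.14, adjusted p = 0.145) at an unadjusted p under 0.05, as were 16.4% of all genes. WIF1 gave 4.62 points ± 2.38 (adjusted p = 0.356) and DKK3 8.25 ± 6.06 (adjusted p = 0.573) in that comparison. Without replicate 2 of clone 11 at day 21 SFRP4 was called in that comparison (11.4 points, adjusted p = 0.0151). With all libraries, gains in the treated clones at day 21 were not shown to differ from the changes in the parental line. Days 7 and 14 were not compared in this way. Untreated clones and the untreated parental line had no member called, and none at an unadjusted p under 0.05, beside 0% and 3.37% of all genes. The KO change minus the day 21 change was called for no member, beside 0.465% of genes higher and 0.107% lower, and SFRP1 and WIF1 had an unadjusted p under 0.05, as had 7.81% of all genes.

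The 100 kb on each side of the genes showed how far these values belonged to a wider stretch. Around WIF1 the flanks were covered by 7.45% in KO clones and 0.767% in KO parental, and by 6.88% at day 21 and 0.512% at day 0. Around FRZB they were covered by 4.42% in KO clones and 0.968% in KO parental, around SFRP4 by 5.07% and 1.06%, and around DKK3 by 6.11% and 1.78%, in the same order. Among the members called in KO clones, SFRP1 had the smallest difference in its flanks, with 1.21% in its flanks in KO clones and 1.01% in KO parental. The flanks of SFRP5 averaged 14.5% at day 21 and 5.82% at day 0, while those of DKK1 held 2.03% in KO clones and 0.683% in KO parental. These are means without a test.

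**Figure D4:**
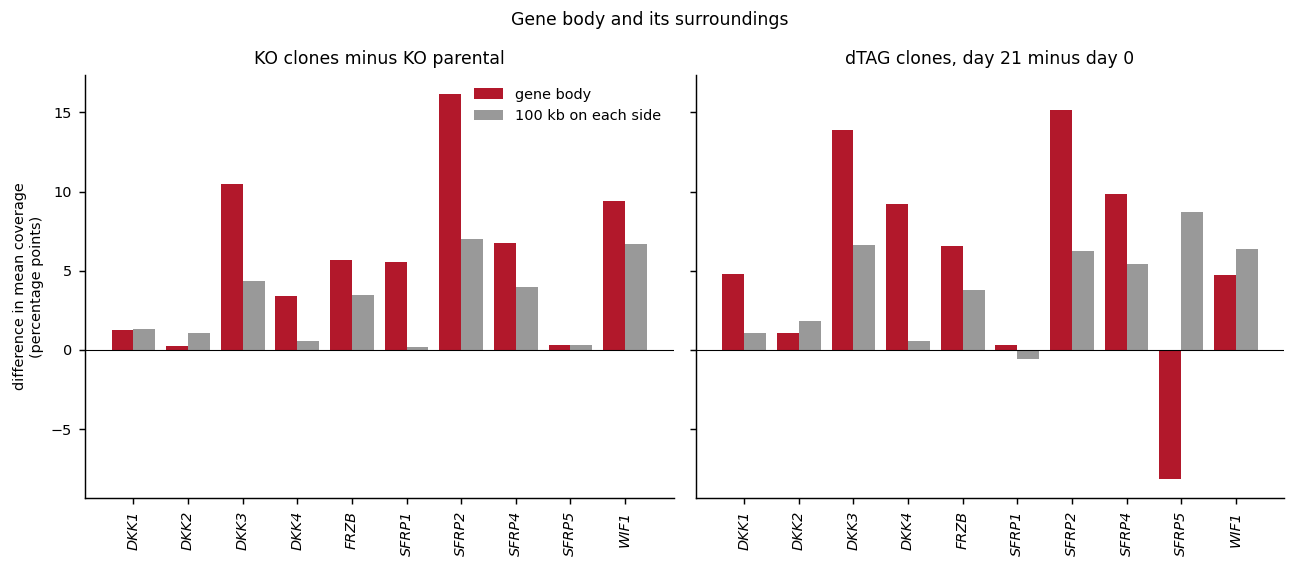
Difference in mean coverage in percentage points (y axis) for each gene body and for the 100 kb on each side of it, in KO clones minus KO parental and in dTAG clones at day 21 minus day 0. Gene and flanks are both above 0 in both comparisons for 8 genes, all but SFRP1 and SFRP5, and SFRP1 has 5.56 points in the gene and 0.200 in its flanks in the KO clones.

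Other genes of the pathway were counted from lists of 68 genes, of which 60 entered the test. In KO clones 10 of the 60 were called higher and none lower, and at day 21 19 were called higher and 1 lower. Of 18 Wnt ligand genes tested, 3 were higher in KO clones and 7 at day 21. WNT8A was covered by 16.6% ± 7.92 in KO clones (n = 4) and 1.19% ± 1.68 in KO parental (n = 2), a gain of 15.4 points (adjusted p = 0.0271), and it gained 20.6 points at day 21 (adjusted p = 0.000711). WNT16 gained 12.4 points in KO clones (adjusted p = 0.0483) and 17.3 at day 21 (adjusted p = 0.00116).

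Of 17 receptor and coreceptor genes, 4 were higher in KO clones, and 4 were higher and 1 lower at day 21. ROR2, a receptor for noncanonical Wnt signals, was covered by 12.0% ± 1.64 in KO clones and 2.25% ± 0.462 in KO parental (adjusted p = 4.09e-05), and by 9.09% ± 1.79 at day 21 and 1.61% ± 0.686 at day 0 (adjusted p = 4.65e-05). KREMEN1, the receptor through which DKK1 removes LRP6 from the cell surface, gained 9.26 points in KO clones (adjusted p = 0.00929) and 10.4 at day 21 (adjusted p = 0.000670). The gene that was lower at day 21, named after its value was seen, was the Frizzled receptor FZD5, with 7.14% ± 1.15 at day 21 and 15.9% ± 5.45 at day 0 (adjusted p = 0.0195). In KO clones FZD5 went the other way and was not called, with 11.4% ± 4.31 against 5.41% ± 3.05 in KO parental (adjusted p = 0.251).

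Of 8 genes of the R-spondin axis, which tunes receptor levels, 2 were higher in KO clones and 5 at day 21. LGR5, an R-spondin receptor, was covered by 10.5% ± 5.20 in KO clones and 0% in both KO parental libraries (adjusted p = 6.77e-06), and by 5.68% ± 2.14 at day 21 and 0.0644% ± 0.129 at day 0 (adjusted p = 0.000193). Its reference groups were at or near 0%, as was WNT8A at day 0, so the coverage filter could favour these differences, as for WIF1. The SE of the LGR5 gain in KO clones was 1.09 points, pooled over all 15 groups, whereas its KO clone libraries had an SD of 5.20. ZNRF3, a ligase that clears Frizzled receptors, gained 3.25 points in KO clones (adjusted p = 0.00497) and 2.84 at day 21 (adjusted p = 0.00219). These 6 gains kept their sign when scaled by called length. Of 9 signal transduction genes 1 was higher in each comparison, of 4 other Wnt inhibitors 0 in KO clones and 1 at day 21, and of 4 feedback targets 0 and 1. The list counts are read beside the 18.0% and 26.5% of all genes called higher, and no list was tested as a set.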

How the data were processed

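H3K27me3 CUT&Tag peak lists of 30 libraries were used, and 10 libraries with other antibodies or IgG were not analysed here. The authors deposited 1 broad peak list per library, in hg38, with a score, a fold enrichment ratio, a -log10 p and a -log10 q per peak. Per the submitters' processing notes the tools included fastp 0.24.0, Bowtie2, SAMtools, Picard, MACS3 3.0.2, deepTools 3.5.1, DESeq2 and ChIPseeker 1.42.1, with no roles given there. The -log10 q of the deposited peaks started at about 1 in each list. Reads per library were not listed, so depth is known only through an estimate of background pileup (0.922 to 3.26 fragments) taken from peaks' fold and -log10 p.

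Peaks were merged per library (Python 3.11.15), and the percent of each protein-coding gene of at least 1 kb inside them was computed. The 13977 genes with mean coverage of 1% to 99% were tested in limma 3.58.1 under R 4.3.3. The model gave each of the 15 groups its own mean and left 15 residual degrees of freedom, with a trended prior and Benjamini-Hochberg adjustment at 0.05. Two-sided contrasts averaged the clones. The fit was tested on simulated data. DKK2 was under the 1% limit and 9 members entered. All members are described, per library where called in KO clones or at day 21. Other pathway genes were named, at most 2 per list and comparison, by the largest change among those called in both. The members and lists were chosen with earlier results of these data known. Alternatives were scaling by called length, equal list lengths, stricter peaks, joined gaps, a pileup covariate, no filter, extended genes, a replicate block, the compared groups only and leaving out each library. The comparison of KO with day 21 changes and the strict start-site count were added after seeing the data.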

Additional observations from a re-analysis of the deposited data

Results flagged for a closer look

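Dixon's criterion was applied to 47 sets of values, each 1 gene in 1 group of 4 libraries, so the same libraries recur across genes. In 6 of the 47 sets, 1 library stood apart from the other 3. Chance meets the criterion in about 1 set in 20 for normally distributed values, but coverage has a floor at 0%. Where 3 libraries were at 0%, as for DKK4 and SFRP1 below, any value above 0% meets it. The 6 sets therefore cannot be held against that rate. DKK1 was covered by 28.4% in replicate 1 of KO clone 3, where the KO median was 24.6%. DKK1 was also at 28.4% in replicate 1 of dTAG clone 11 at day 14, where the median was 25.6%. DKK4 was at 3.28% in replicate 1 of dTAG clone 11 at day 0 and at 0% in the other libraries of that day. FRZB was at 18.4% in replicate 1 of dTAG clone 11 at day 14 (median 6.91%), and at 1.64% in replicate 2 of dTAG clone 8 at day 0 (median 1.75%). SFRP1 was at 1.36% in replicate 1 of dTAG clone 8 at day 21 and at 0% in the other 3.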

How the results depend on the processing

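The number of members called was 3 in KO clones and 3, 5 and 4 at days 7, 14 and 21. It was 0 in all 4 comparisons with peaks of a -log10 q of at least 5 or of a fold of at least 4, and the members with a start-site peak in every library went to 0 at that q, against 2, of the 6 with a RefSeq start. At that q WIF1, SFRP4, SFRP2, SFRP1 and DKK4 were under the coverage limit and not tested. At that fold only DKK1 and FRZB were tested. With lists of equal length 1 member was called in each comparison, SFRP5, which was lower. WIF1, SFRP4, SFRP1 and DKK4 were then under the coverage limit and not tested. Joining gaps up to 3 kb gave 1 in KO clones (WIF1), 1 at day 7 (SFRP4), 2 at day 14 (DKK3 and FRZB) and 3 at day 21 (DKK3, SFRP4 and WIF1). The pileup covariate gave 3 at day 14 (DKK3, FRZB and SFRP4) and 2 at day 21 (DKK3 and SFRP4). Scaling by called length gave 1 in KO clones (WIF1), and fitting the compared groups only gave 1 (FRZB). At days 7, 14 and 21 scaling called DKK1 and SFRP5 lower, and SFRP4 and WIF1 higher, with DKK3 and FRZB also higher at day 14. Leaving out 1 library gave 1 to 3 in KO clones, 2 to 3 at day 7, 3 to 5 at day 14 and 2 to 5 at day 21. It gave 0 to 1 for clones minus parental (SFRP4, 11.4 points, adjusted p = 0.0151, without replicate 2 of clone 11 at day 21) and 0 to 1 for KO minus day 21 changes (SFRP1). Except where a construction is named, the cause was not tested.

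Signs turned in these cases. Scaling, which lowers a gene covered alike in short and long lists, gave -14.9 points for DKK1, -3.18 for DKK4 and -52.7 for SFRP5 in KO clones, -22.6, -21.1 and -21.3 for DKK1 at days 7, 14 and 21, and -50.4 for SFRP5 at day 7. Equal length gave -0.0982 for FRZB and -61.4 for SFRP5 in KO clones, and -59.5 for SFRP5 at day 7. A -log10 q of 5 gave -37.7 for SFRP5 in KO clones and -17.4 at day 7, and -0.581 for DKK3 and -0.320 for FRZB at day 14. A fold of 4 gave -4.00, -9.29 and -8.62 for DKK1 at days 7, 14 and 21, -0.0997 for FRZB in KO clones and -0.504, -0.845 and -0.170 at days 7, 14 and 21. The pileup covariate gave -5.22 for SFRP5 in KO clones and -0.769 for SFRP1 at day 21. Joined gaps gave 16.0 and 10.6 for SFRP5 at days 14 and 21. Adding 5 kb each side gave -0.953 for DKK1 and 5.72 for SFRP5 at day 14, and 10.6 for SFRP5 at day 21 (adjusted p = 0.0312). Leaving out 1 library gave -2.49 to 4.97 for DKK1, -1.80 to 8.63 for DKK4 and -6.61 to 7.22 for SFRP5 in KO clones, and -23.2 to 6.96 for SFRP5 at day 21.

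The labels do not say what a replicate number shares. Replicate 1 held more peaks than replicate 2 in 15 of 15 groups. The correlation of same-numbered libraries' deviations was 0.0335 to 0.558 over 105 group pairs (median 0.187). It was not above 0.1 in each, so the libraries were not taken as paired. Every correlation was above 0, and a shared effect of the replicate number was not tested. A replicate block called 4 members in KO clones (DKK3 in addition, adjusted p = 0.0108) and 3, 5 and 4 at days 7, 14 and 21, and 0 in the other comparisons.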
